A study of Danio rerio with 15 samples.

Results

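The expression of 10 leukocyte marker genes was followed in whole zebrafish larvae after exposure to PFOS (perfluorooctanesulfonic acid), a long-lived surfactant in which fluorine replaces hydrogen along the carbon chain. The genes were taken by symbol from the gene table, which holds 32520 genes: marco, mpeg1.1, mfap4 and csf1ra, used as markers of macrophages; mpx and lyz, used as markers of neutrophils; and ptprc, coro1a, lcp1 and spi1b, used as markers of leukocytes in general. Each symbol matched exactly 1 row, and all 10 genes passed the filter on low counts that left 21477 genes for testing. The larvae were of the AB wild-type strain at 120 hours post-fertilization, and RNA came from the whole body. There were 5 groups of 3 libraries: a control, and PFOS at 0.1, 1, 5 and 10 µM. The sources used here do not state the number of larvae per library, their clutch, the length of the exposure or any solvent given to controls. Developmental neurotoxicity is the subject named in the series title.

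Leukocytes of the larva are almost wholly of the innate kind: macrophages, which engulf microbes and dead cells and which settle in the brain as microglia, and neutrophils, which carry granules of antimicrobial enzymes. Both arise from myeloid progenitors that depend on the transcription factor PU.1, encoded by spi1b, and macrophages depend on signals through the CSF1 receptor. Marker transcripts in a whole larva report on cells that are a small part of the RNA. In such bulk samples more cells of a type and more RNA per cell cannot be told apart.

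Library totals ran from 11956657 to 19978125 estimated counts, and the single marker genes had between 17 and 644 counts per library. The share of mitochondrial genes was between 3.849% and 5.378%. It was highest in replicate 3 of the 5 µM group, the library that also differed most from the mean of its group. The 10 µM columns of the table carry the numbers 2, 3 and 4, whereas the sample titles carry 1, 2 and 3, so the text numbers those libraries as the table does and ties them to the group only. No sequencing batch or date is given, so a batch shared by a whole dose group cannot be told apart from the dose.

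Levels were compared between genes as CPM (counts per library size) divided by a length in kilobases. This was the length recovered from the deposited values, which need not be the full length of the transcript. On this scale lyz was the most abundant of the 10 transcripts, at 69.3 ± 14.8 CPM per kilobase at 10 µM and 52.7 ± 7.45 in controls (SD, n = 3 each). Its libraries did not overlap with those of any other marker gene in any of the 5 groups. This lead rests on the short length recovered for lyz. In CPM alone the control means were 18.4 in lyz, 18.4 in coro1a and 22.4 in lcp1. In controls coro1a and lcp1 followed, at 11.8 and 11.1 CPM per kilobase, and overlapped with each other. Then came mpx at 6.19, mfap4 at 5.25, csf1ra at 4.64 and mpeg1.1 at 4.42 CPM per kilobase, each overlapping with its neighbour. The lowest were marco at 2.26, spi1b at 1.56 and ptprc at 1.49 CPM per kilobase, of which spi1b and ptprc overlapped. At 10 µM marco, at 6.02 ± 1.71 CPM per kilobase, stood between csf1ra at 6.22 and mpeg1.1 at 5.28, overlapping with both. In controls it stood below mpeg1.1 with no overlap between the libraries of the 2 genes.

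At 10 µM PFOS 2 of the 10 markers, the macrophage genes marco and mfap4, were higher than in controls by edgeR's quasi-likelihood test (adjusted p below 0.05 over all genes tested), and none was lower. Across all 21477 genes 14.4% passed this threshold (7.78% of all genes higher and 6.65% lower), so at this dose a call by itself was common. All 10 markers had a positive log2 fold change, against 49% of all genes, with a median of 0.44, against -0.01 over all genes. In 5 of the 10 (marco, mpeg1.1, mfap4, mpx and spi1b) every 10 µM library lay above every control library, which was so for 18.6% of all genes. At an unadjusted p below 0.05 the number of markers was 4, and 29.5% of all genes passed that threshold. The markers were chosen with earlier results of these data known, so these shares are given as a description.

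**Figure D1:**
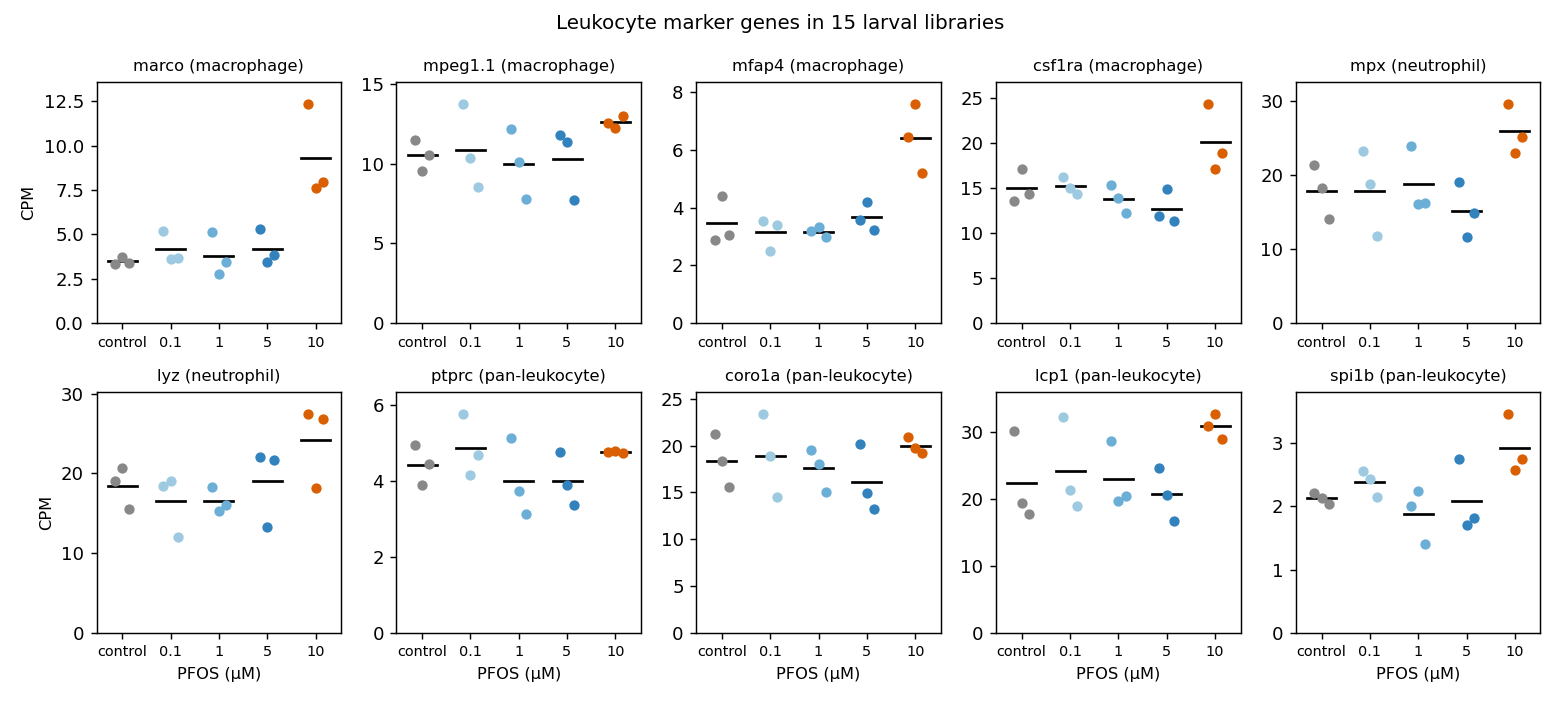
Levels of the 10 marker genes in CPM (counts scaled to library size; vertical axis, from 0) against the PFOS dose in µM (horizontal axis, control at the left). Each point is 1 library, with 3 per group, and the bar is the group mean. In marco and mfap4 the 3 libraries at 10 µM lie above the other 12; in ptprc and coro1a they lie within the range of the other groups.

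The gene marco (ENSDARG00000059294, chromosome 9, 795609 to 813693, minus strand) encodes a class A scavenger receptor with a collagen-like stalk, by which macrophages bind bacteria and debris. The sources used here do not name the build of these coordinates. In CPM (counts scaled to the TMM-adjusted library size), marco was at 3.35, 3.74 and 3.36 in controls, at 5.16, 3.59 and 3.69 at 0.1 µM, at 5.12, 2.79 and 3.46 at 1 µM and at 5.28, 3.41 and 3.85 at 5 µM. At 10 µM it was at 12.3, 7.59 and 7.93 CPM in libraries 2, 3 and 4. The 12 libraries up to 5 µM shared 1 range, and all 3 libraries at 10 µM lay above it. The mean was 9.28 ± 2.64 CPM at 10 µM and 3.48 ± 0.224 CPM in controls (SD, n = 3 each), with log2 fold change 1.41 (SE 0.248, adjusted p = 0.00272), or 2.66-fold. This was the largest fold change among the 10 markers, and it passed the threshold in every alternative that was run. Among all genes, 8.77% had their 3 libraries at 10 µM above the other 12, and mfap4 was the only other marker that did.

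The gene mfap4 (ENSDARG00000090783, chromosome 1, 59090583 to 59092056, plus strand) encodes a secreted fibrinogen-related protein, and its promoter is widely used to label zebrafish macrophages. It was at 2.89, 4.41 and 3.07 CPM in controls, 3.56, 2.51 and 3.38 at 0.1 µM, 3.19, 3.33 and 2.97 at 1 µM, 3.57, 4.19 and 3.24 at 5 µM and 6.44, 7.59 and 5.19 at 10 µM. Again the libraries up to 5 µM shared 1 range and those at 10 µM lay above it. The mean was 6.41 ± 1.2 CPM at 10 µM and 3.46 ± 0.831 CPM in controls (SD, n = 3 each), which is 0.88 as log2 fold change (SE 0.203, adjusted p = 0.0107). The call was lost without control replicate 3, where the log2 fold change was 0.80 (adjusted p = 0.0528).

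The gene csf1ra (ENSDARG00000102986, chromosome 14, 3143337 to 3180947, minus strand) encodes the receptor tyrosine kinase for CSF1 and IL34; in zebrafish it is expressed in yellow pigment cells as well as in macrophages. It was at 13.5, 17.2 and 14.4 CPM in controls, 16.2, 15 and 14.4 at 0.1 µM, 15.4, 13.9 and 12.2 at 1 µM, 11.9, 14.9 and 11.3 at 5 µM and 24.3, 17.1 and 18.9 at 10 µM. Library 2 was the highest at 10 µM, and the lowest at 10 µM lay just under the highest control. The mean was 20.1 ± 3.75 CPM at 10 µM and 15 ± 1.9 CPM in controls (SD, n = 3 each), which is 0.42 as log2 fold change (SE 0.145, adjusted p = 0.065). It passed the threshold without control replicate 2 (0.53, adjusted p = 0.0483), without 10 µM library 3 (0.52, adjusted p = 0.0394) and with the trend over gene length removed (0.46, adjusted p = 0.0453). Without 10 µM library 2 it was at 0.26 (adjusted p = 0.31).

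The gene mpeg1.1 (ENSDARG00000055290, chromosome 8, 29710110 to 29713621, minus strand) encodes a perforin-like protein of macrophages and drives the most used macrophage reporter in zebrafish. It was at 11.5, 9.55 and 10.5 CPM in controls, 13.7, 10.3 and 8.55 at 0.1 µM, 12.2, 10.1 and 7.75 at 1 µM, 11.8, 11.3 and 7.69 at 5 µM and 12.6, 12.2 and 13 at 10 µM. The libraries at 10 µM lay above those of the controls but within the range seen at 0.1 µM. The mean was 12.6 ± 0.382 CPM at 10 µM and 10.5 ± 0.967 CPM in controls (SD, n = 3 each), which is 0.26 as log2 fold change (SE 0.193, adjusted p = 0.398). Thus the 4 macrophage markers gave 1.41, 0.88, 0.42 and 0.26 on the log2 scale at 10 µM, and 2 of the 4 passed the test; the differences among these 4 values were not tested.

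The neutrophil marker mpx (ENSDARG00000019521, chromosome 10, 7778870 to 7785945, minus strand) encodes the myeloperoxidase of neutrophil granules. It was at 21.3, 18.2 and 14.0 CPM in controls, 23.2, 18.7 and 11.7 at 0.1 µM, 24.0, 16.0 and 16.2 at 1 µM, 19.0, 11.6 and 14.9 at 5 µM and 29.6, 22.9 and 25.2 at 10 µM. The 10 µM libraries lay above the controls, but 1 library at 0.1 µM and 1 at 1 µM reached the lowest of them. The mean was 25.9 ± 3.38 CPM at 10 µM and 17.9 ± 3.66 CPM in controls (SD, n = 3 each), which is 0.54 as log2 fold change (SE 0.234, adjusted p = 0.139). It passed the threshold when only the 2 groups compared were fitted (adjusted p = 0.0245). In that fit 19.4% of all genes were called, against 14.4% with all groups fitted.

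The neutrophil marker lyz (ENSDARG00000057789, chromosome 24, 24035863 to 24038800, minus strand) encodes lysozyme, which cuts bacterial cell walls. It was at 19.0, 20.6 and 15.5 CPM in controls, 18.4, 19.0 and 12 at 0.1 µM, 18.3, 15.3 and 16.1 at 1 µM, 22.1, 13.3 and 21.7 at 5 µM and 27.5, 18.2 and 26.8 at 10 µM. Libraries 2 and 4 were high at 10 µM and library 3 lay within the controls. The mean was 24.2 ± 5.17 CPM at 10 µM and 18.4 ± 2.6 CPM in controls (SD, n = 3 each), which is 0.39 as log2 fold change (SE 0.207, adjusted p = 0.22). The value was 0.17 with the trend over gene length removed; lyz, at 349 bases in the length recovered from the deposited values, is the shortest of the 10.

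None of the 4 pan-leukocyte markers passed the test at 10 µM, with log2 fold changes of 0.46 in lcp1 and spi1b, 0.12 in coro1a and 0.11 in ptprc. The gene lcp1 (ENSDARG00000023188, chromosome 9, 56251000 to 56272465, minus strand) encodes L-plastin, which bundles actin in leukocytes. It was at 30.2, 19.4 and 17.7 CPM in controls, 32.2, 21.3 and 19.0 at 0.1 µM, 28.7, 19.7 and 20.4 at 1 µM, 24.7, 20.6 and 16.7 at 5 µM and 30.9, 32.7 and 28.9 at 10 µM. Replicate 1 of the control stood at the level of the 10 µM libraries while its other 2 replicates lay far under it. The log2 fold change was 0.46 (SE 0.22, adjusted p = 0.174), and 0.73 without control replicate 1 (adjusted p = 0.0535). 

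The gene spi1b (ENSDARG00000000767, chromosome 7, 32644673 to 32659353, minus strand) had the lowest counts, 17 to 51 per library. It was at 2.21, 2.14 and 2.04 CPM in controls and at 3.46, 2.58 and 2.75 at 10 µM, with values between 1.40 and 2.75 at the doses in between. The groups at 10 µM and in controls did not overlap, and the log2 fold change was 0.46 (SE 0.232, adjusted p = 0.202).

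The gene ptprc (ENSDARG00000071437, chromosome 22, 22977268 to 23067859, minus strand) encodes CD45, the membrane phosphatase carried by nearly all leukocytes. It was at 4.75, 4.77 and 4.73 CPM at 10 µM, against 4.94, 3.87 and 4.45 in controls, which is 0.11 as log2 fold change (SE 0.199, adjusted p = 0.768). The gene coro1a (ENSDARG00000054610, chromosome 3, 30926364 to 30941362, minus strand) encodes coronin 1A, an actin regulator of leukocytes. It was at 20.9, 19.8 and 19.2 CPM at 10 µM, against 21.2, 18.4 and 15.5 in controls, which is 0.12 as log2 fold change (SE 0.178, adjusted p = 0.693). In both genes the 10 µM libraries lay close together within the range of the controls. A miss of the threshold does not show that a gene did not differ. For mpeg1.1, lyz, spi1b, ptprc and coro1a 2 standard errors were larger than the log2 fold change.

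The comparison of 10 µM with 5 µM asked whether the highest dose differed from the one below it. The control libraries enter this contrast only through the filter, scaling and dispersion of the common model. With only the 2 groups fitted 5 markers were called, lcp1 being added, against 8.71% of all genes. Here 4 markers were higher (marco, mfap4, csf1ra and mpx) and none was lower, against 15.4% of all genes called and 8.06% called higher. In marco the log2 fold change was 1.15 (SE 0.243, adjusted p = 0.00688), in mfap4 0.81 (SE 0.202, adjusted p = 0.0157), in csf1ra 0.66 (SE 0.147, adjusted p = 0.00872) and in mpx 0.77 (SE 0.237, adjusted p = 0.0389). All 10 values were positive, against 50.7% of all genes, with a median of 0.53, and in 6 of the 10 the groups did not overlap, which was so for 16.8% of all genes. Without 10 µM library 2 none of the 10 passed in edgeR, when 5.04% of all genes did, marco being at 0.89 (adjusted p = 0.0505), mfap4 at 0.80 (adjusted p = 0.0576), csf1ra at 0.51 (adjusted p = 0.0569) and mpx at 0.67 (adjusted p = 0.152). The call of mpx was also lost on leaving out 5 µM replicate 2 or 3 or any other 10 µM library, and that of mfap4 without 5 µM replicate 3 or 10 µM library 3. This comparison and that of 10 µM with control share the 10 µM libraries, so their values are not independent.

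**Figure D2:**
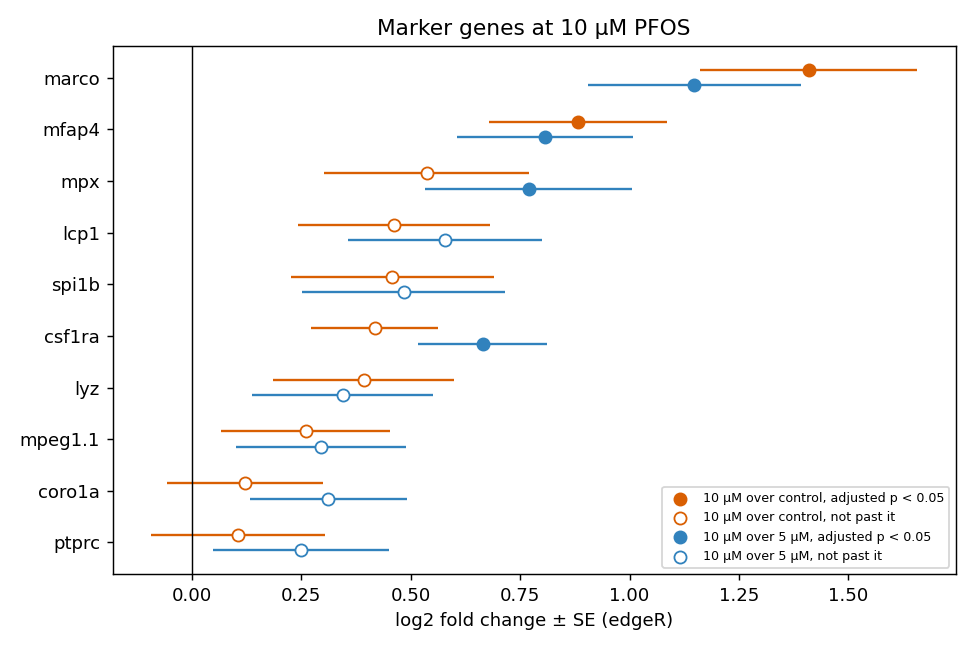
Log2 fold changes (horizontal axis) of the 10 marker genes (rows) at 10 µM over control and at 10 µM over 5 µM, with bars of 1 SE from the edgeR model. Filled points passed an adjusted p of 0.05. All 20 points lie to the right of 0, and marco lies farthest out in both comparisons, at 1.41 and 1.15.

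At the 3 lower doses no marker passed the test against control. edgeR called 0 of the 10 at 0.1, 1 and 5 µM, and 0 had an unadjusted p below 0.05. DESeq2 also called 0, when it called 0%, 0% and 0.0677% of the genes it tested at these doses. The background was 0% of all genes by edgeR's adjusted p, with 243, 422 and 837 genes (1.13%, 1.96% and 3.9%) at an unadjusted p below 0.05 at 0.1, 1 and 5 µM. The log2 fold changes of the 10 ran from -0.16 to 0.26 at 0.1 µM (median 0.05), from -0.17 to 0.13 at 1 µM (median -0.10) and from -0.25 to 0.26 at 5 µM (median -0.08). At 5 µM csf1ra was at -0.25 (SE 0.148) and mpx at -0.23 (SE 0.24), so part of the size of their difference between 10 and 5 µM lay in low values at 5 µM. The gene marco was at 0.26 at 5 µM (SE 0.261), which leaves room for a small difference in either direction.

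An F test over the 4 doses together called marco (adjusted p = 0.00627), mfap4 (adjusted p = 0.0139) and csf1ra (adjusted p = 0.0478), against 7.9% of all genes. On leaving out each of the 15 libraries in turn, marco lost this call in 1 case (10 µM library 2), mfap4 in 2 (10 µM libraries 2 and 3) and csf1ra in 12. Without 10 µM library 2 no marker was called in edgeR, and 0.859% of all genes were. A slope over dose rank was called in marco, at 0.31 per rank (SE 0.0702, adjusted p = 0.0288), and in mfap4, at 0.21 (SE 0.0579, adjusted p = 0.0499), against 3.59% of all genes, 2.53% being upward. Since the 12 libraries up to 5 µM shared 1 range in both genes, these slopes go with a step at the highest dose. Of the 15 libraries left out in turn, 6 cost marco the call of its slope and 11 cost mfap4 that of its own. Both were lost without any 1 of the 3 libraries at 10 µM, without control replicate 3 and without replicate 2 or 3 at 0.1 µM; mfap4 also without control replicate 1, replicate 1 at 0.1 µM or any replicate at 1 µM.

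Most pairs of markers varied together within the groups, and those with mfap4 did so least. Over the 15 libraries all 45 pairs of markers had a positive Pearson r of log2 CPM, from 0.20 to 0.84 with a median of 0.62. After the group means were taken out, 42 of the 45 remained positive, with a median of 0.51 and a range from -0.38 to 0.86. Of all pairs of tested genes 49.9% were positive on either measure. In the 9 pairs with mfap4 the median within groups was 0.09, and the lowest was that with lyz, at -0.38. Other pairs were weak too: those of csf1ra with the markers other than mfap4 ran from 0.13 (lyz) to 0.46 (marco). The pair of lyz and ptprc was at 0.13. These are descriptions, and both genes of a pair were read in the same libraries. In 5 of the 10 markers the highest level fell on the same library number in 4 groups. In mpeg1.1, mpx, ptprc, coro1a and lcp1 the library numbered 1 was the highest of its group in the control and at 0.1, 1 and 5 µM alike. Of all genes 6.01% did the same in these 4 groups, and 9.15% in the control and at 0.1 and 1 µM. Summed over the 10 markers, replicates 1, 2 and 3 gave 130, 118 and 101 CPM in controls, 144, 116 and 94.0 at 0.1 µM, 133, 105 and 98.8 at 1 µM and 126, 99.8 and 97.8 at 5 µM. The order by number was the same in all 4 groups for this sum, to which the abundant lcp1, coro1a, mpx and lyz add most. It was not the order of every marker: in controls library 1 lay below the mean of libraries 2 and 3 in mfap4 (-0.37 on the log2 scale), csf1ra (-0.22) and marco (-0.08), and at 5 µM in mfap4 (-0.06) and csf1ra (-0.14). The 3 libraries at 10 µM were at 173, 146 and 153 CPM, above every other library, with a mean of 157 ± 14.2 CPM, against 116 ± 14.8 CPM in controls (SD, n = 3 each).

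The sources used here do not say what the numbers stand for. Over all genes, same-numbered libraries of the control, 0.1 and 1 µM groups deviated together (r from 0.19 to 0.45 over 9 pairs), while those of the 5 µM group did not in every pair (from -0.14 to 0.40). Library 2 at 5 µM instead went with those numbered 3 in the control, 0.1 and 1 µM groups (0.28, 0.32 and 0.11). Library 3 at 5 µM went with those numbered 2 (0.22, 0.23 and 0.17). Whether these 2 numbers stand for the same thing at 5 µM as in the other groups was not tested. A fit with the replicate number, taken as given, as a block over the control, 0.1, 1 and 5 µM groups called 0 markers by edgeR at 0.1, 1 and 5 µM. Of all genes it called 0% at 0.1 and 1 µM and 0.00469% at 5 µM, so this sets no marker apart. The 10 µM group was not in this fit. The 10 µM libraries could not be placed in this order. Against control replicates 2 and 3 alone, marco stayed at 1.38 (adjusted p = 0.0142) and mfap4 at 0.77 (adjusted p = 0.0493) in edgeR. The number of markers called was the same, when 7.86% of all genes were called, against 14.4% with replicate 1. Control library 1 was not high in these 2 genes. This fit thus cannot show whether the order by number bears on their calls.

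**Figure D3:**
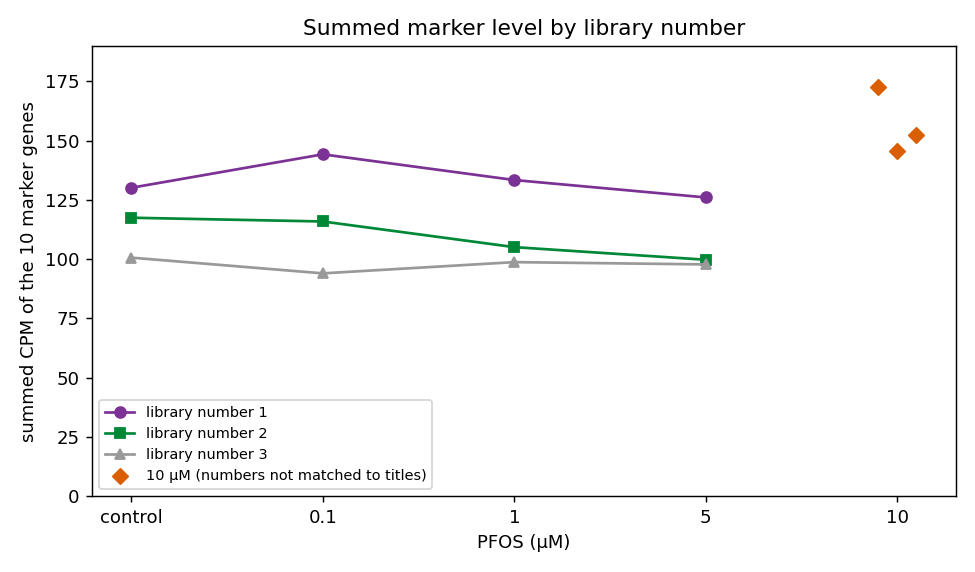
Summed CPM of the 10 marker genes in each library (vertical axis, from 0) against PFOS in µM (horizontal axis). Lines join libraries of the same number from the control to 5 µM, with the numbers taken as given. Diamonds are the 3 libraries at 10 µM, whose numbers were not matched to titles. The order 1, 2, 3 from high to low is the same in the 4 groups joined, and the 10 µM libraries lie between 145.5 and 172.8 CPM.

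Each gene's spread between replicates set what could be seen. The standard deviation of log2 CPM within groups ran from 0.188 in csf1ra to 0.349 in mpx, with a median over all genes of 0.192, so 9 of the 10 markers were noisier than the typical gene. At 10 µM the libraries of ptprc had a standard deviation of 0.0215 CPM and those of mpeg1.1 of 0.382 CPM, less than in any other group for these genes. With 3 libraries, and 59 to 62 counts each in ptprc, so small a spread is given as a description. Differences in spread between groups were not tested.

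The mfap4 gene stands in a cluster of genes named as its copies. Its reads may be split among them, but their sequences were not compared. Through the gene names supplied, 15 rows of the table belonged to the mfap4 family, all on chromosome 1, and 6 of them had enough counts to be tested. Of these 6, 3 were higher at 10 µM than in controls and none was lower, against 7.78% and 6.65% of all genes. Besides mfap4 itself, the tested row of si:zfos-2330d3.7 (named mfap4.8) was at 3.92 ± 1.99 CPM at 10 µM and 0.909 ± 0.29 CPM in controls (SD, n = 3 each), which is 2.09 as log2 fold change (SE 0.569, adjusted p = 0.0241). A further row of that symbol, at 0.0769 and 0.0507 CPM, was not tested. The copy si:ch1073-110a20.1 (named mfap4.11) was at 3.09 ± 0.68 CPM and 0.965 ± 0.38 CPM, which is 1.66 as log2 fold change (SE 0.407, adjusted p = 0.0149). At 10 over 5 µM the log2 fold changes in edgeR were 0.62 for si:zfos-2330d3.7 (adjusted p = 0.433) and 1.4 for si:ch1073-110a20.1 (adjusted p = 0.0284). The calls of both copies over control were lost on leaving out control replicate 1, control replicate 3 or 10 µM library 2. That of si:zfos-2330d3.7 was also lost without control replicate 2.

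The other 3 tested rows of the cluster were also above 0 at 10 µM over control but did not pass. The longer of 2 rows named zgc:173915 was at 10.9 ± 3.43 CPM at 10 µM and 5.89 ± 0.607 CPM in controls, which is 0.89 as log2 fold change (SE 0.305, adjusted p = 0.062). The shorter row was at 0.78 (SE 0.369, adjusted p = 0.171), and si:ch1073-110a20.7 (named mfap4.5) was at 0.92 (SE 0.474, adjusted p = 0.208). At 10 over 5 µM the longer zgc:173915 row passed edgeR's test, at 1.12 (adjusted p = 0.0254), where 8.06% of all genes were called higher. The shorter row, at 1.07 (adjusted p = 0.0683), and si:ch1073-110a20.7, at 0.71 (adjusted p = 0.325), did not. In si:ch1073-110a20.7 PFOS 5 µM replicate 2 stood at 9.93 CPM while replicates 1 and 3 stood at 3.42 and 0.877 CPM. The sources used here do not say how any reads shared by these copies were assigned, so values of single copies are uncertain. The row of mfap4 also lies inside si:zfos-2330d3.1 on the opposite strand, which was at 0.131 ± 0.0456 CPM at 10 µM and 0.44 ± 0.43 CPM in controls.

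**Figure D4:**
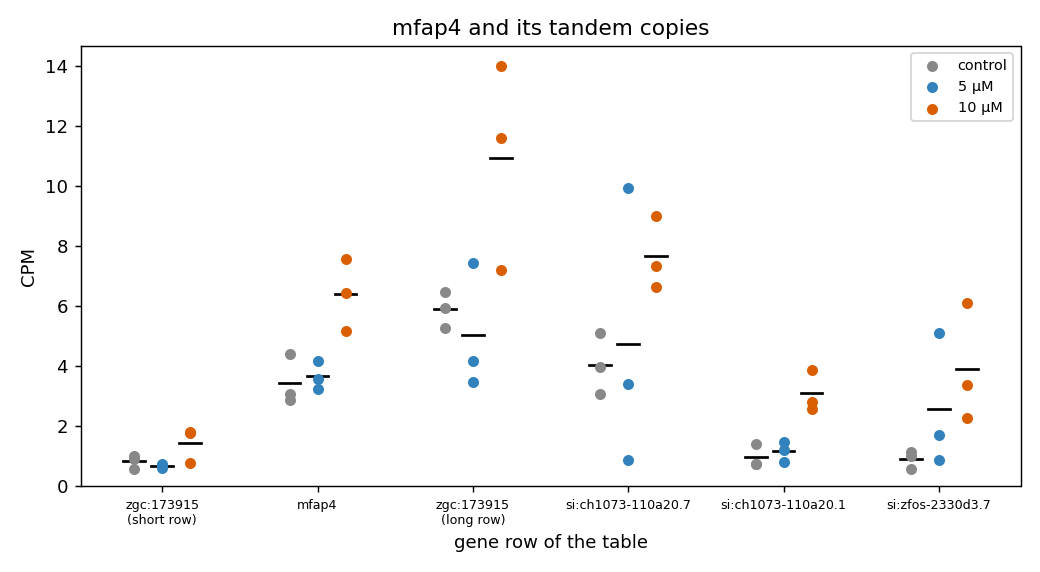
CPM (vertical axis, from 0) of mfap4 and 5 other tested rows of its cluster on chromosome 1 in the control, 5 µM and 10 µM libraries. Each point is 1 library, with 3 per group, and the bar is the group mean. In mfap4 and si:ch1073-110a20.1 the 3 libraries at 10 µM lie above all control and 5 µM libraries; in the other rows 5 µM libraries reach into or above the 10 µM range, or the groups overlap.

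Further markers overlap other genes. The 3′ end of coro1a lies over that of cldni, a claudin gene on the opposite strand, which was at 271 ± 50.9 CPM at 10 µM and 165 ± 8.5 CPM in controls (SD, n = 3 each), which is 0.72 as log2 fold change (SE 0.144, adjusted p = 0.00542). The sources used here do not say whether strand was used in counting, so reads of coro1a and cldni in the shared stretch cannot be told apart. The row of lyz lies partly within abcc13 on the same strand (log2 fold change -0.14, adjusted p = 0.635), and spi1b overlaps si:ch73-314g15.3 on the opposite strand (-0.11, adjusted p = 0.682).

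At the level of transcripts, 24 were listed for the 10 genes, of which 16 were tested and 3 were at 0 in every library. By edgeR 1 was higher at 10 µM, marco-202, at 6.74 ± 1.93 CPM at 10 µM and 2.46 ± 0.548 CPM in controls (SD, n = 3 each), which is 1.45 as log2 fold change (SE 0.361, adjusted p = 0.0348). Over all 32275 transcripts tested 6.25% were called, and the call of marco-202 was lost on leaving out any control library or 10 µM library 2 or 4. The other transcript of marco was at 2.55 ± 0.739 CPM and 1.03 ± 0.47 CPM, with log2 fold change 1.3 (SE 0.39, adjusted p = 0.0679), a value close to that of marco-202. The split among the 3 transcripts of mfap4 varied from library to library: the first of them had 51, 21 and 64 counts at 10 µM, against 2, 48 and 42 in controls. The gene ptprc was counted almost wholly on ptprc-202, with 59 to 62 counts at 10 µM and 58 to 61 in controls.

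Of the paralogues mpeg1.2, csf1rb and spi1a none passed the test at 10 µM by edgeR. The paralogue mpeg1.2, which in zebrafish is also expressed in macrophages, was at 73.6, 37.2 and 24.2 CPM in controls, 91.5, 37.7 and 27.8 at 0.1 µM, 85.9, 34 and 22.3 at 1 µM and 61.8, 16.8 and 12.3 at 5 µM. The libraries numbered 1 were thus the highest and those numbered 3 the lowest in each of these 4 groups. At 10 µM it was at 27.0, 26.8 and 27.1 CPM, nearly the same in all 3 libraries. The log2 fold change at 10 µM over control was -0.74 (SE 0.6, adjusted p = 0.442). The gene mpeg1.1, in the same libraries, differed less by number, and mpeg1.3 was at 0 in controls and at 10 µM.

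The second CSF1 receptor gene, csf1rb, which in zebrafish acts in the definitive blood lineage, was at 2.01, 1.64 and 2.44 CPM at 10 µM, against 3.50, 3.87 and 2.34 in controls. The log2 fold change was -0.67 (SE 0.259, adjusted p = 0.0945), of opposite sign to that of csf1ra. The PU.1 paralogue spi1a was at 3.58 ± 0.61 CPM at 10 µM and 2.89 ± 0.594 CPM in controls (0.31, adjusted p = 0.549). The ligands of the CSF1 receptor did not pass: csf1a was at -0.16 (SE 0.247), csf1b at 0.00 (SE 0.249, to 2 decimals) and il34 at -0.16 (SE 0.231).

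Wider lists of cell type genes placed the 10 markers among others of their kind. For all of these lists the background at 10 µM is 7.78% of all genes higher and 6.65% lower. The lists were chosen with earlier results of these data known, so counts set against this background are descriptions. Of 23 tested macrophage and microglia genes 6 were higher at 10 µM and none was lower, with a median log2 fold change of 0.42. In 18 of the 23 the log2 fold change was positive, and the lowest values were those of mpeg1.2 (-0.74) and csf1rb (-0.67). Without the 4 markers 4 of 19 were higher, with a median of 0.36. The 4 were ctss2.1, a cathepsin S gene, at 1.2 (SE 0.222, adjusted p = 0.00341), mertka, a receptor for the uptake of dying cells, at 0.53 (SE 0.129, adjusted p = 0.0136), apoeb, an apolipoprotein E gene of microglia that other larval tissues express too, at 0.88 (SE 0.223, adjusted p = 0.0169), and cmklr1, a chemerin receptor, at 0.71 (SE 0.206, adjusted p = 0.0316). In ctss2.1 the libraries were at 8.46, 7.35 and 6.79 CPM at 10 µM, against 3.04, 3.61 and 3.14 in controls, and the call held in every alternative. The other 3 calls did not: mertka was lost in 3 of 12 alternatives (adjusted p up to 0.0757), apoeb in 3 of 12 (up to 0.077) and cmklr1 in 6 of 11 (up to 0.134). In apoeb they were at 1790, 1730 and 1610 CPM at 10 µM, against 895, 1070 and 813 in controls, and apoeb made up most of the list's summed level of 2280 to 2430 CPM at 10 µM and 1380 to 1660 CPM in controls. Without its 6 called genes the list summed to 579 to 617 CPM at 10 µM and 534 to 619 CPM in controls. The genes were split by their calls in this same comparison, so these sums do not show whether the remaining genes differed. The count of higher genes in this list was 3 without control replicate 3 and 3 without 10 µM library 2. Of all genes 6.27% and 4.83% were then called in either direction. The microglial receptor p2ry12 and the complement genes c1qa, c1qb and c1qc had too few counts to be tested.

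Of 12 tested neutrophil genes 3 were higher at 10 µM and none was lower, with a median of 0.54 (3 of 10 and 0.55 without mpx and lyz). In 10 of the 12 the log2 fold change was positive. The chemotaxin gene lect2l was at 65.7, 45 and 73.0 CPM at 10 µM, against 15.6, 17.5 and 14.8 in controls, which is 1.94 as log2 fold change (SE 0.243, adjusted p = 0.000352). The gelatinase gene mmp9 was at 117, 94.6 and 95.3 CPM at 10 µM, against 16.5, 55.0 and 17.3 in controls (1.78, SE 0.468, adjusted p = 0.0206), with control replicate 2 standing apart from the other 2. The gene of serglycin, a granule proteoglycan, srgn, was at 44.3, 28.4 and 35.3 CPM at 10 µM, against 16.3, 25.9 and 15.6 in controls (0.90, SE 0.212, adjusted p = 0.0125). The fourth by p, adam8a, a membrane protease gene, was at 0.54 (SE 0.19, adjusted p = 0.0686). The count was 1 on leaving out control replicate 1, control replicate 3 or 10 µM library 2, when srgn and mmp9 no longer passed. Of all genes 7.86%, 6.27% and 4.83% were then called in either direction. The summed level of the list was 259 to 345 CPM at 10 µM and 116 to 182 CPM in controls. At 10 µM mmp9 was its largest part, and which cells this RNA came from was not tested. Of the sum the 3 called genes gave 168 to 227 CPM at 10 µM and 47.7 to 98.4 CPM in controls. The others gave 91.4 to 118 CPM at 10 µM and 67.9 to 83.5 CPM in controls. This split, too, was made by the calls of the same comparison.

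Of 27 tested pan-leukocyte genes none was called by edgeR in either direction, while 23 had a positive log2 fold change, with a median of 0.21. Those of smallest p outside the 4 markers were cyba, a subunit of the NADPH oxidase, at 0.85 (SE 0.334, adjusted p = 0.0997), fcer1g, an Fc receptor chain, at 0.87 (SE 0.416, adjusted p = 0.176), wasb, an actin regulator, at 0.42 (SE 0.203, adjusted p = 0.186), and fcer1gl at 0.40 (SE 0.21, adjusted p = 0.214). The summed level was 327 to 368 CPM at 10 µM and 286 to 355 CPM in controls, so the groups overlapped.

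Of 22 tested myeloid growth factors and regulators 2 were higher at 10 µM and none was lower, with a median of 0.02. They were myb, a factor of blood progenitors, at 0.55 (SE 0.142, adjusted p = 0.0197), and cebpb, a C/EBP factor also induced in other tissues, at 0.96 (SE 0.267, adjusted p = 0.0269). The macrophage factor irf8 was at 0.45 (SE 0.228, adjusted p = 0.2) and cebpd at 0.34 (SE 0.192, adjusted p = 0.252). The count was 0 without control replicate 3 and 0 without 10 µM library 2, when 6.27% and 4.83% of all genes were called. It was 1 without control replicate 1 and 1 without 10 µM library 4, when 7.86% and 7.14% were.

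**Figure D5:**
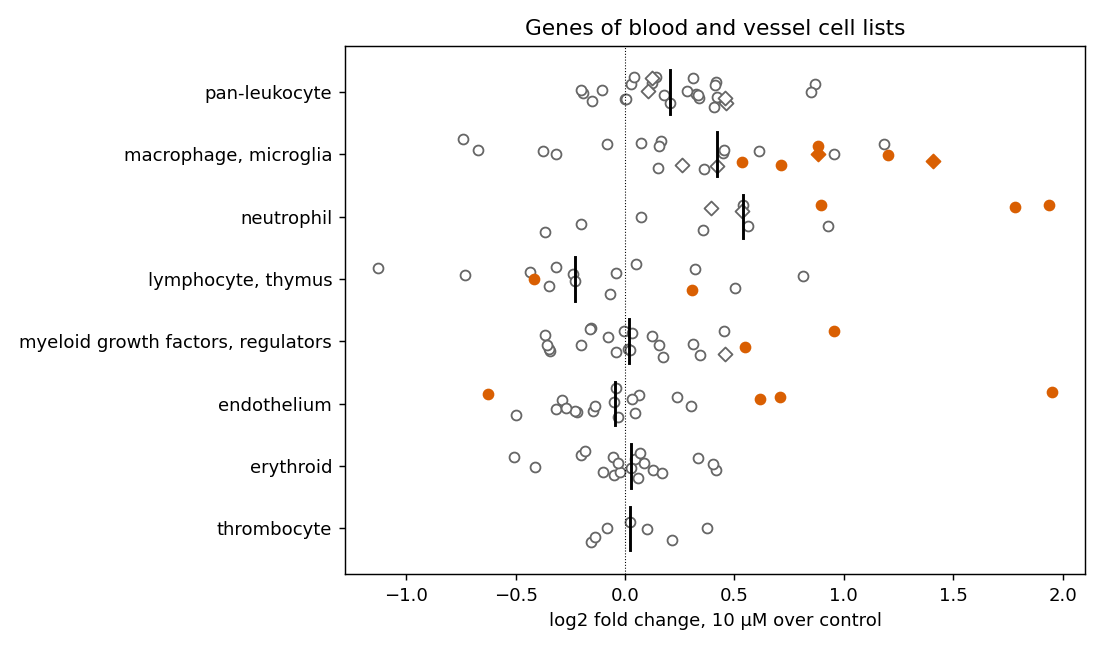
Log2 fold change at 10 µM over control (horizontal axis) of each tested gene in 8 lists (rows). Filled symbols passed an adjusted p of 0.05, diamonds are the 10 marker genes and vertical bars are list medians. The medians are 0.42 for macrophage and microglia genes, 0.54 for neutrophil genes and 0.21 for pan-leukocyte genes, and -0.23 for lymphocyte and thymus genes.

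Of 15 tested lymphocyte and thymus genes 1 was higher, 1 was lower and the median was -0.23. The T cell factor gene bcl11ba, which neurons express too, fell to 74.3, 84.4 and 71.6 CPM at 10 µM, against 106, 98.3 and 103 in controls (-0.42, SE 0.118, adjusted p = 0.0288). The gene gata3 was at 68.6, 89.2 and 78.5 CPM at 10 µM, against 67.2, 65.4 and 58.4 in controls (0.31, SE 0.0993, adjusted p = 0.0498). Which cells the RNA of these 2 genes came from was not tested. Neither call held on leaving out control replicate 1, control replicate 3 or 10 µM library 4; that of bcl11ba was also lost without 10 µM library 2, and that of gata3 without control replicate 2 or 10 µM library 3. The thymus factor foxn1 was at -0.73 (SE 0.289, adjusted p = 0.101) and tox at -0.23 (SE 0.0835, adjusted p = 0.0785). Of the genes of this list, cd8a was at 0 in every library, and cd4-1, zap70, cd79a and cd79b had too few counts to be tested.

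Some genes of other cell types also passed the test at 10 µM. Of 20 tested endothelial genes 3 were higher and 1 was lower, with a median of -0.05. The scavenger receptor genes stab1 and stab2, known from the endothelium of veins and, for stab1 in mammals, also from macrophages, were at 0.71 (SE 0.0846, adjusted p = 0.000305) and 0.62 (SE 0.0986, adjusted p = 0.00157). The hyaluronan receptor gene lyve1a was at 1.95 (SE 0.31, adjusted p = 0.00155), and flt4, a receptor of veins and lymphatics, was at -0.63 (SE 0.129, adjusted p = 0.00622). The summed level of the list overlapped, at 351 to 379 CPM at 10 µM and 356 to 364 CPM in controls. Of 19 erythroid and 7 thrombocyte genes none was called by edgeR, with medians of 0.03 and 0.02; their summed levels were 1410 to 1840 CPM at 10 µM against 1200 to 1990 in controls, and 231 to 241 against 248 to 276. The part of other cell types, of their RNA or of depth in the values of the 10 markers was not tested. At 5 µM no gene of the 8 lists was called by edgeR, and the medians of the macrophage and neutrophil lists were -0.08 and 0.00.

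The genes most alike to 3 of the markers in level were ranked next. Among 16806 genes averaging at least 1 CPM, clone-based symbols left out, the highest Pearson r of log2 CPM with marco over the 15 libraries were those of psmd3, a proteasome subunit (0.96), eif4ebp3l, a translation repressor (0.94), and adipor2, an adiponectin receptor (0.94). All 3 were also higher at 10 µM (log2 fold changes of 0.65, 1.12 and 0.73), and so stood high in the same 3 libraries. For mpeg1.1 they were esyt3 (0.94), itpkcb (0.93) and dnajb6b (0.91), and for mpx slc44a4 (0.95), hsp90b1 (0.94) and prmt3 (0.94). Of these last 6 only slc44a4 was called at 10 µM (0.75, adjusted p = 0.0307). With 15 libraries and so many genes ranked, a high r for the top few is given as a description.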

How the data were processed

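RNA-seq of whole larvae was deposited as tables of genes and transcripts. Per the file headers, the authors deposited estimated counts (whole numbers) and RPKM per gene, and estimated counts per transcript. RNAzol was used for extraction, per the labels' protocols. The sources used here name no aligner, counter or genome build and do not say whether strand was used. Gene values equalled their transcript sums in 96.81% of cases and never differed by more than 2 reads, so they were treated as estimated counts. RPKM of the 12 libraries matched to a sample, as deposited by the authors, served only to recover the length by which each gene had been divided. Left unused were 18 other columns of single libraries in the gene-level table, and 30 in the transcript-level one.

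Of 32520 genes, 5419 were at 0 everywhere and 21477 passed filterByExpr. All 15 libraries were fitted in 1 edgeR 4.0.16 model of 5 group means (R 4.3.3, TMM, glmQLFit, glmQLFTest, two-sided, Benjamini-Hochberg over all genes, threshold 0.05; common dispersion 0.0168). Standard errors are the absolute log2 fold change over the square root of F. The script was tested on simulated counts. DESeq2 1.42.0 and the alternatives of the closing section were also run, with limma 3.58.1 loaded by edgeR.

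Nothing in the labels ties replicates to separate clutches or exposures. The p-values thus cover only the spread between the libraries at hand, and that spread may be technical. Replicate numbers are in the titles. Same-numbered libraries of the control, 0.1 and 1 µM groups deviated together in every pair (r 0.19 to 0.452). Those of the 5 µM group did not (r -0.137 to 0.395). A block was fitted both with and without the 5 µM group. The block without it was added after seeing the data, and called 0% of all genes at 0.1 µM and 0.00474% at 1 µM. The 10 µM columns, numbered 2, 3 and 4, were never paired. The markers, the 8 lists (168 of 175 symbols found), the tests and the alternatives were chosen with earlier results of these data known. Named genes were all 10 markers, up to 4 genes of smallest p at 10 µM per list, and for marco, mpeg1.1 and mpx the 3 most alike genes; relatives, overlapping genes, the CSF1 receptor ligands and genes too low to test were named for their role. The mfap4 copies were matched by name through RefSeq and Ensembl gene names, not by sequence.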

Additional observations from a re-analysis of the deposited data

Results flagged for a closer look

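In 4 of the markers the difference between the 2 highest doses passed edgeR's test, against 15.4% of all genes. None of the 4 was called at 5 µM against control, but there 0% of all genes were, so this sets no marker apart. The log2 fold change of 10 µM over 5 µM was 1.15 in marco, 0.807 in mfap4, 0.664 in csf1ra and 0.769 in mpx. In marco and mfap4 every 10 µM library lay above all 12 other libraries, which was so for 8.77% of all genes. Without 10 µM library 2 none of the 4 passed (adjusted p from 0.0505 to 0.152 in edgeR), when 5.04% of all genes did, against 15.4% with it.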

How the results depend on the processing

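The 2 calls at 10 µM over control differed in how firmly they stood. That of marco was kept in every alternative run (log2 fold change 1.15 to 1.53), and that of mfap4 in every one but that without control replicate 3. On leaving out 1 library at a time, 1 to 3 markers were called at 10 µM over control, when 4.83% to 11.8% of all genes were. At 10 over 5 µM it was 0 to 4 markers, against 5.04% to 15.9% of all genes. In the F test it was 0 to 3, against 0.859% to 9.26%, and for the slope 0 to 2, against 0.083% to 11.6%. The number of markers stayed at 0 at 0.1, 1 and 5 µM. Transcripts called ran from 0 to 1. The share at 10 µM over control, in either direction, is also the background of the lists. In the lists the count of higher genes at 10 µM ran from 3 to 7 for macrophages, 1 to 3 for neutrophils, 0 to 1 for lymphocytes and 0 to 2 for myeloid regulators, and the count of lower genes from 0 to 2 for lymphocytes and 1 to 2 for endothelium. The single higher gene of the lymphocyte and thymus list, gata3, was lost (0 called) with DESeq2 size factors and with no filter on low counts. With no filter 1 marker had a called slope, against 2.36% of all genes, and 0 transcripts were called. With dose in µM 3 markers had a called slope (marco, mfap4 and lyz), against 16.2% of all genes. With dose as log2 (dose + 0.1 µM) 0 markers had a called slope, against 0.456% of all genes. The cause was not tested. A filter of at least 5 CPM in 3 libraries left 8 markers, without ptprc and spi1b.

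Values near 0 changed sign. With the replicate block mpx at 0.1 µM was at -0.0166 over 4 groups and at -0.0154 over 3 (the block over 3 groups was added after seeing the data), against 0.00952 without it; the block changed no call among the markers. No paired analysis was possible for 10 µM because its columns carry other numbers than the titles. The slope of ptprc was 0.00329 with dose in µM and that of coro1a -0.00358 with dose on the log2 scale. On leaving out 1 library the log2 fold changes at 0.1 µM ran from -0.145 to 0.206 in coro1a, -0.0534 to 0.124 in csf1ra, -0.154 to 0.388 in lcp1, -0.27 to 0.0229 in lyz, -0.24 to 0.0907 in mfap4, -0.158 to 0.203 in mpeg1.1 and -0.235 to 0.238 in mpx. At 1 µM they ran from -0.17 to 0.0497 in coro1a, -0.158 to 0.306 in lcp1, -0.158 to 0.305 in marco, -0.244 to 0.0876 in mfap4, -0.234 to 0.0829 in mpeg1.1, -0.144 to 0.217 in mpx and -0.363 to 0.00327 in ptprc. At 5 µM they ran from -0.264 to 0.154 in lcp1, -0.0708 to 0.249 in lyz, -0.0359 to 0.295 in mfap4, -0.15 to 0.141 in mpeg1.1 and -0.268 to 0.0982 in spi1b, and slopes from -0.0146 to 0.0219 in coro1a and -0.0245 to 0.00849 in ptprc. With 17 to 51 counts per library in spi1b and 3 libraries a group, small differences were not detectable.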
